A study of Mus musculus with 2 samples.

Results

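The 7 miRNA features described here, Mir21, Mir143, Mir145, Mir214, Mir199a-1, Mir199a-2 and Mir199b, encode miRNAs best known from fibroblasts, smooth muscle and other mesenchymal cells. They are 7 of the 1638 miRNA features in the deposited table and were chosen by name, with their values in these libraries already known, so that their levels are a description and were not tested. The smRNA-seq data came from 1 library of mESCs (E14, wild-type embryonic stem cells of the mouse) and 1 library of germ cells from wild-type male fetuses of the C57Bl/6J background at E15.5, labelled as PGCs and called prospermatogonia in the study's sample list. The methods describe a culture of naive E14 mESCs without feeder cells, in serum-free medium with LIF and inhibitors of MEK and GSK3, but the smRNA library is listed only as mESC, so that its culture is not given in the sources used here. For the germ cells they describe embryos of females with an Oct-4/GFP transgene, which is active in the developing gonad. With a single library in each condition, no difference below has a replicate check, and all intervals are 95% intervals of the reads, which cover counting error only.

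A miRNA is cut from a hairpin in a longer transcript, and the short mature strand guides Argonaute to mRNAs, chiefly through the seed, bases 2 to 8 from its 5′ end. miR-21 is among the most abundant miRNAs of many adherent and transformed cells and represses Pdcd4, an inhibitor of translation. miR-143 and miR-145 are cut from a shared transcript, are abundant in smooth muscle and fibroblasts, and miR-145 is known to repress Klf4 and other pluripotency factors. miR-199a and miR-214 come from Dnm3os, a noncoding RNA that is antisense to Dnm3 and is active in the mesenchyme of the developing skeleton.

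The mature sequences of Mir21, Mir214 and Mir199 show which members share a seed, here in capitals, and they were taken from RefSeq (GRCm38.p6), where 5 of the 7 features had an entry at the same position.
miR-21a-5p: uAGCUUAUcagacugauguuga
miR-21a-3p: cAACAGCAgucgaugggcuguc
miR-214-5p: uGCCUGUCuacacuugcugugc
miR-214-3p: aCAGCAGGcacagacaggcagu
miR-199a-5p: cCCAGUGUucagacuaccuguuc
miR-199a-3p and miR-199b-3p: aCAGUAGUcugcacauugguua
The 2 strands of miR-21a, of miR-214 and of miR-199a all have different seeds, so that no seed joins the Mir21, Mir214 and Mir199 features. Outside the members, RefSeq lists the seed of miR-21a-5p in miR-21c, for which the table has no row at that position, and the seed of miR-214-3p in miR-761, whose row held 0 reads in both libraries.

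The 3 Mir199 hairpins are shown because they share mature strands, in capitals, which bears on how their reads can be placed.
Mir199a-1: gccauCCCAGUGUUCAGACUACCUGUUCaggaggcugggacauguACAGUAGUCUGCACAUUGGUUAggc
Mir199a-2: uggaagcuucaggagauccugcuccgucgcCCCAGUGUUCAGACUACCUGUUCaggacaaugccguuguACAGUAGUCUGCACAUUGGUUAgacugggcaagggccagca
Mir199b: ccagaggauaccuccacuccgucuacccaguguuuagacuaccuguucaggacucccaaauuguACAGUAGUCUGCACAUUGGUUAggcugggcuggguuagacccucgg
Both mature strands are identical between Mir199a-1 and Mir199a-2, and the 3p strand is also identical in Mir199b. The stretch of the Mir199b hairpin nearest to miR-199a-5p, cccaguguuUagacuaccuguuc, differs from it by the single substitution C10U, counted from 1 at the 5′ end of miR-199a-5p and marked by the capital. A read of either miR-199a strand therefore has more than 1 place in the genome, and only the 5p arm of Mir199b can be told from the other copies, by that base.

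The positions of the table are on GRCm38, and 6 of the 7 features lay exactly on a miRNA gene of GENCODE vM21. Mir21 (Mir21a in GENCODE) lies on the minus strand of chromosome 11 from 86584067 to 86584158, in an exon and UTR of Vmp1 on the same strand. Mir199a-2, from 162217814 to 162217923, and Mir214, from 162223368 to 162223477, lie 5444 bp apart on the plus strand of chromosome 1 in exons of Dnm3os, opposite an intron of Dnm3. Mir199a-1 lies antisense to an intron of Dnm2 on chromosome 9 from 21496495 to 21496564, and Mir199b antisense to an intron of Dnm1 on chromosome 2 from 32318460 to 32318569. All 3 Mir199 features thus lie opposite a dynamin gene. Since the sources do not say whether reads were counted by strand, reads of the opposite gene cannot be told apart from those of the miRNA.

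Mir143 lies on the minus strand of chromosome 18 from 61649196 to 61649258. Mir145 lies 1292 bp from it on the same strand, from 61647816 to 61647903, and is the feature whose ends differ from those of its gene in GENCODE, Mir145a, from 61647825 to 61647894. No row of the table overlapped any of the 7 features, and within 10 kb of them the one row other than a cluster partner was AL808027.1, beside Mir199b, with 0 reads in both libraries.

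The deposited values above the lowest of each library were whole multiples of 1 read to within 0.0140 reads, and read numbers were recovered from them. Read as log2 RPM (reads scaled to a library of 1000000), a single read was worth 2.22 RPM in mESCs and 0.348 RPM in prospermatogonia, which gives library totals of 449643 and 2869578 reads. The miRNA features held 110455 and 155237 of these, and levels are also given as shares of these miRNA reads, which do not depend on how the library total is read. A count of 0 allows for as many as 3 reads, or 6.67 RPM in mESCs and 1.05 RPM in prospermatogonia. The cell labels were set beside 2 lists of marker miRNAs, which were chosen with earlier results of these data known and so are no independent check. The 12 listed members of the Mir290 and Mir302 clusters held 24.7% of the miRNA reads in mESCs and 3.25% in prospermatogonia. Of 12 listed names of X-linked miRNAs of male germ cells, 9 were found, which held 0.00543% in mESCs and 4.11% (2222 RPM) in prospermatogonia. That sum leaves out 2 rows under other names. These are mmu-mir-743b.1, with 15.6 RPM in mESCs and 3352 RPM in prospermatogonia, and mmu-mir-871.1, with 0 and 129 RPM. The share of the whole group in prospermatogonia is thus higher.

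Together the 7 features were a larger part of the miRNA reads in the mESC library than in the prospermatogonia library. They had 3656 reads in mESCs, 3.31% of the miRNA reads (3.21% to 3.42%), and 748 reads in prospermatogonia, 0.482% (0.449% to 0.518%). Their share was thus 6.87-fold lower in prospermatogonia, and their summed RPM, 8131 against 261, was 31.2-fold lower. Nearly all of these reads came from Mir21 and Mir143. Without Mir21, which was tried after its values were known, the other 6 features held 1.30% in mESCs and 0.169% in prospermatogonia, a share 7.73-fold lower. In mESCs Mir21 was the highest, followed by Mir143, then by Mir214 and Mir145, whose intervals overlapped, and by Mir199b, with Mir199a-1 and Mir199a-2 at 0 reads. In prospermatogonia Mir21 and Mir143 were again the highest, and the other 5 features had 2 reads or fewer. Reads were not divided by length, since a smRNA read spans a whole mature miRNA.

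**Figure D1:**
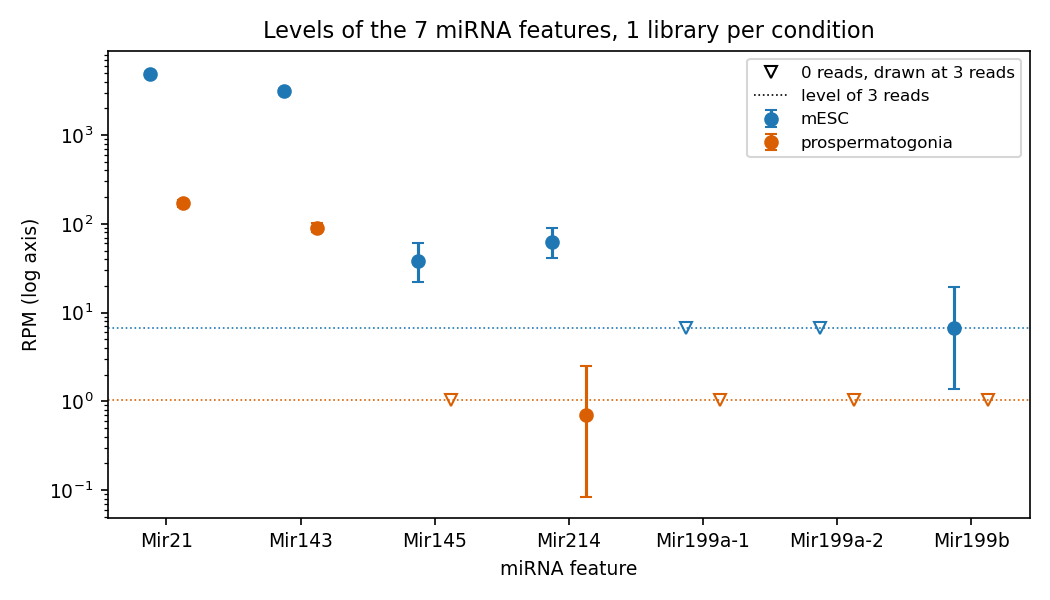
RPM of the 7 miRNA features on a log axis in the mESC library (blue) and the prospermatogonia library (orange), with bars for the exact 95% Poisson interval of the reads. Features with 0 reads are drawn as open triangles at the level of 3 reads, which the dotted lines mark. Mir21 and Mir143 lie far above these lines in both libraries, whereas the Mir199 features do not rise above them.

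Mir21 was the 10th highest feature of the mESC library. It had 2215 reads there, 4926 RPM (4723 to 5136) and 2.01% of the miRNA reads. In prospermatogonia it had 486 reads, 169 RPM (155 to 185) and 0.313% of the miRNA reads, and ranked 36th. The intervals of the libraries lay far apart on either scale. Its RPM was 29.1-fold lower in prospermatogonia (26.4 to 32.1), a log2 ratio of -4.85 with a pseudocount of 1 RPM, and its share of miRNA reads was 6.41-fold lower (5.81 to 7.07). At the mESC share, the prospermatogonia library would have held 3113 Mir21 reads.

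Mir143 followed the same course at a lower level. It had 1393 reads in mESCs, 3098 RPM (2937 to 3265) and 1.26% of the miRNA reads, and ranked 15th. In prospermatogonia it had 260 reads, 90.6 RPM (79.9 to 102) and 0.167% of the miRNA reads, and ranked 51st. Both libraries held it well above the level of 3 reads, and the intervals did not overlap. The RPM was 34.2-fold lower in prospermatogonia (30.0 to 39.0), a log2 ratio of -5.08, and the share of miRNA reads was 7.53-fold lower (6.60 to 8.60).

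Mir21 and Mir143 lie on different chromosomes, and the ratio between them, which no scaling of the libraries can alter, was compared as well. There were 1.59 Mir21 reads for each Mir143 read in mESCs (1.49 to 1.70) and 1.87 in prospermatogonia (1.60 to 2.18). The ratio was 1.18-fold higher in prospermatogonia with an interval of 0.997 to 1.39, so that the reads left a difference of up to 1.39-fold in the balance of these miRNAs undecided, while each of them was several-fold lower.

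The cluster partners Mir143 and Mir145 differed widely in reads within the same library. Whether the library preparation captured both sequences equally well was not tested. In mESCs Mir145 had 17 reads (9.90 to 27.2), 37.8 RPM, against 1393 of Mir143, so that Mir143 held 98.8% of the reads of the pair (98.1% to 99.3%), or 81.9 reads for each read of Mir145. In prospermatogonia Mir145 had 0 reads beside 260 of Mir143, and Mir143 held 100% of the pair (98.6% to 100%). These shares overlap within their intervals. At the mESC ratio of the pair, 260 Mir143 reads would go with 3.17 Mir145 reads, about the number that a count of 0 allows, and a change in the balance of the pair was not detectable at this depth. With the 17 mESC reads taken as they stand and 3 reads in prospermatogonia, the RPM of Mir145 was 36.2-fold lower in prospermatogonia. Its share of miRNA reads was 7.96-fold lower. This bound leaves out the counting error of the 17 reads (22.0 to 60.5 RPM), so that smaller folds are allowed too.

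The partners on chromosome 1, Mir214 and Mir199a-2, could be compared only through Mir214. In mESCs Mir214 had 28 reads (18.6 to 40.5), 62.3 RPM, and Mir199a-2 had 0. In prospermatogonia Mir214 had 2 reads (0.242 to 7.22), 0.697 RPM, and Mir199a-2 again had 0. Mir214 was thus above the level of 3 reads in mESCs and not in prospermatogonia. Its RPM was 89.3-fold lower in prospermatogonia, with a wide interval of 23.5 to 339, and its share of miRNA reads was 19.7-fold lower (5.19 to 74.7). At its mESC share it would have had 39.4 reads in prospermatogonia.

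Mir199b had 3 reads in mESCs (0.619 to 8.77), 6.67 RPM, and 0 in prospermatogonia, where the mESC share would have given 4.22 reads. Mir199a-1 had 0 reads in both libraries, as did Mir199a-2. No fold is given for the 3 Mir199 features, since both libraries were at or under the level of 3 reads. Features with shared strands were also counted over the table as a whole. Of 494 rows at the position of a RefSeq hairpin, 24 had mature miRNAs all of which also occur in another hairpin, and Mir199a-1, Mir199a-2 and Mir199b, for which RefSeq lists the 3p strand alone, are among these. Of the 24 rows, 21 (87.5%) had 0 reads in both libraries, none had more than 3 reads in either, and together they held 3 reads in mESCs and 4 in prospermatogonia. Of 44 rows with only some mature miRNAs shared, 18 (40.9%) had 0 reads in both libraries and 19 had more than 3 reads in at least 1. Of 420 rows whose mature miRNAs occur in no other hairpin, 188 (44.8%) had 0 reads in both libraries and 177 had more than 3 reads in at least 1. Mir21 and Mir214 are among the latter rows. Since a read of either miR-199a strand has more than 1 place, the 0 reads of Mir199a-1 and Mir199a-2 were not taken as a level of miR-199a in either cell type. What the authors did with reads of several places is not given in the sources used here, and its part in these values was not tested.

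**Figure D2:**
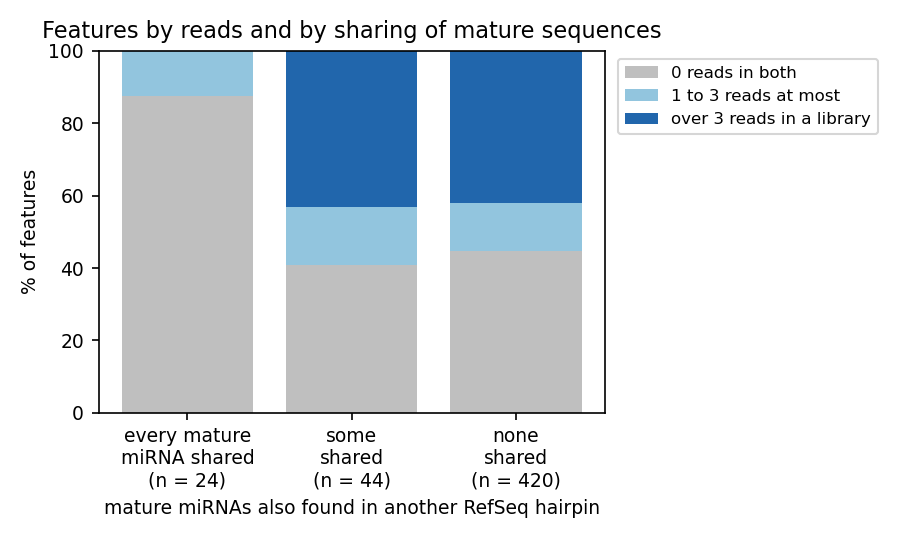
Percent of features with 0 reads in both libraries (grey), with 1 to 3 reads at most (light blue) and with more than 3 reads in at least 1 library (dark blue), for features of which every, some or no mature miRNA is also found in another RefSeq hairpin. None of the 24 features with all listed strands shared exceeds 3 reads. They include the 3 Mir199 features, of which Mir199b has only its 3p strand listed.

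The difference between the libraries was read against that of all miRNA features. The 203 features that reached 10 RPM in either library were compared, of which 80.8% were at least 2-fold lower in prospermatogonia and 9.85% at least 2-fold higher, with a median log2 ratio of -2.52. Of the 7 members 4 passed this filter, Mir21, Mir143, Mir145 and Mir214, each through its level in mESCs, and all 4 were at least 2-fold lower. Since the features were chosen with this contrast known, nothing is read from that count, or from their places among the 203. Their median log2 ratio was -5.15, or -5.13 with Mir145 at its bound. The ratio of Mir21 lay above that of 22 of the 203 features, and that of Mir143 above 17.

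The miRNA features held 24.6% of the library total in mESCs and 5.41% in prospermatogonia. Dividing by all miRNA reads instead of the library total takes out this difference, and moved every log2 ratio up by 2.18 before the pseudocount. With this scaling 39.9% of the 203 features were at least 2-fold lower in prospermatogonia and 20.2% at least 2-fold higher, and the median was -0.46. The 4 members were again all at least 2-fold lower, with log2 ratios of -2.68 for Mir21, -2.91 for Mir143 and -3.93 for Mir214. Their median was -2.95 with Mir145 at its bound. On this scale the ratio of Mir21 lay above that of 30 of the 203 features, and that of Mir143 above 24. Scaling to the median ratio gave -2.49 for Mir21 and -2.72 for Mir143, so that the direction did not turn under either scaling, while the size of the difference depends on it.

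**Figure D3:**
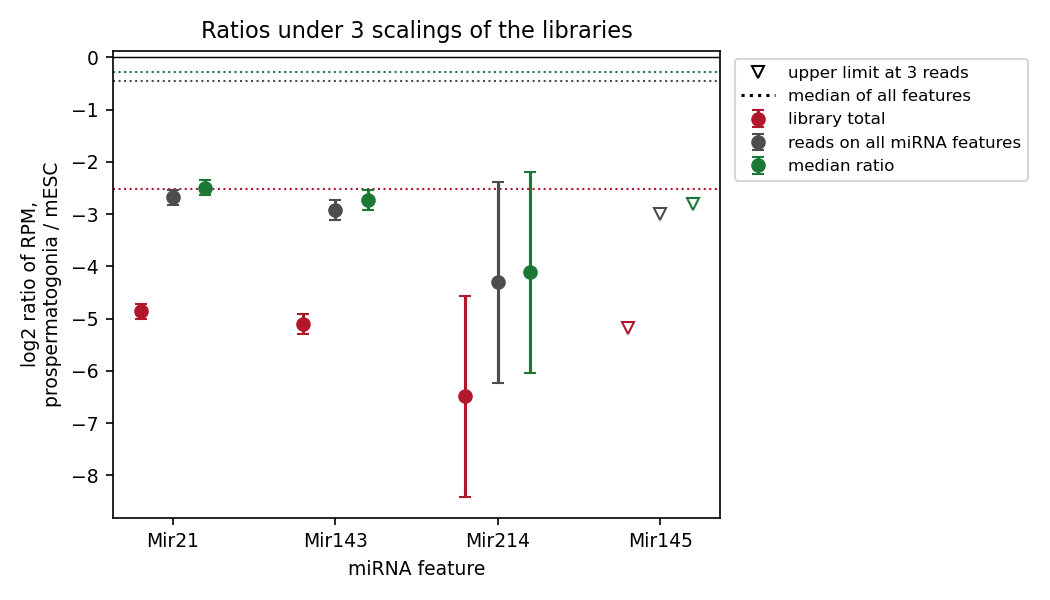
Log2 ratio of RPM in prospermatogonia to RPM in mESCs, without a pseudocount, for Mir21, Mir143 and Mir214 with 95% intervals and for Mir145 as an upper limit at 3 reads (open triangles), under 3 scalings of the libraries. Dotted lines mark the median over 203 features, computed with a pseudocount of 1 RPM, in the colour of the scaling. Every point lies below 0 and below the line of its own colour. The limit of Mir145 leaves out the counting error of its mESC reads.

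The features whose levels in both libraries were most like those of each member were found by the distance between log2(RPM + 1) values, over these 2 libraries only. The nearest to Mir21 were Mir293, with 2109 reads in mESCs and 429 in prospermatogonia, and Mir291a, with 2430 and 681. Nearest to Mir143 were Mir10a, with 1270 and 304 reads, and Mir294, with 837 and 235. Of these, Mir291a, Mir293 and Mir294 belong to the Mir290 cluster, which is known for its expression in mESCs. Since they were picked for like levels in both libraries, their ratios between the libraries are alike by that choice. Nearest to Mir214 were Mir100 and Mir200c, with 28 and 23 reads in mESCs and 4 each in prospermatogonia, and nearest to Mir145 were Mir653, with 11 and 0, and Mir146, with 15 and 2.

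**Figure D4:**
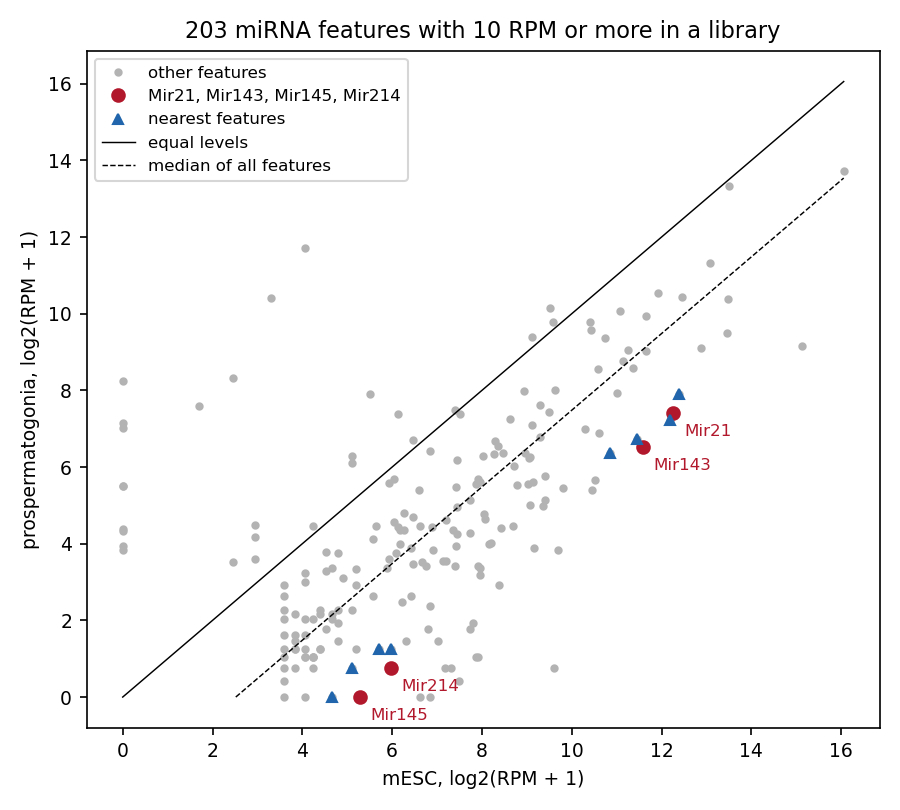
Levels of 203 miRNA features in mESCs and prospermatogonia as log2(RPM + 1), with Mir21, Mir143, Mir145 and Mir214 in red and the features nearest to them as blue triangles. The solid line marks equal levels and the dashed line the median log2 ratio of -2.52. All 4 red points lie below the dashed line.

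Other miRNAs that are common in stromal cells were compared as a list of 20, of which 19 are in the table. The list made up 5.78% of the miRNA reads in mESCs and 7.23% in prospermatogonia, a share that was 1.25-fold higher in the latter. The rise came mainly from Mir22, with 3.54% and 4.73%, and Mir10b, with 0.226% and 1.24%. The share of the 7 features was lower in prospermatogonia. Of the 15 above the filter, 14 were at least 2-fold lower in prospermatogonia by RPM and none higher, against 80.8% and 9.85% of all 203 features. By share of miRNA reads 8 were lower and 1 was higher, against 39.9% and 20.2% of the 203. Their median log2 ratio was -3.42 by RPM and -1.28 by share of miRNA reads. Mir22, which lies on chromosome 11 like Mir21, had 3911 reads in mESCs and 7349 in prospermatogonia and was the highest of the list in both. Mir27b had 1454 and 1486 reads. Mir10b, from the HoxD cluster, had 250 and 1922 reads and was the feature at least 2-fold higher by share of miRNA reads. Among the 8 lower by share were Mir221, with 58 and 5 reads and a log2 ratio of -3.87 on that scale, and Mir27a, with 111 and 23 reads and -2.73. Within the list the ratios thus ranged widely, and Mir21 and Mir143 were lower than Mir22 and Mir27b in prospermatogonia although Mir143 was close to Mir27b in mESCs.

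Markers of blood, endothelial, gonadal somatic and muscle cells were counted beside these values. The mESC library is of E14 stem cells, and these reads were not taken as a measure of such cells in either library. Of 6 blood miRNAs in the table, 2 had more than 3 reads in each library, Mir142 with 400 reads in mESCs and 124 in prospermatogonia and Mir150 with 35 and 5, while the erythroid Mir451 and Mir144 and the myeloid Mir223 had at most 1 read. The summed blood reads were 967 RPM in mESCs and 45.7 RPM in prospermatogonia, and Mir142 made up 400 of these 435 reads and 124 of these 131 reads. Mir126, an endothelial miRNA, had 255 reads in mESCs and 40 in prospermatogonia, a share of miRNA reads 8.96-fold lower in the latter. Mir126 and Mir142 were therefore lower in the same library as Mir21 and Mir143, and their part in the result was not tested. Of 3 miRNAs of the gonadal soma, Mir140 had 280 and 558 reads, Mir455 had 9 and 4, and Mir202, a miRNA of Sertoli cells, had 0 in mESCs and 57 in prospermatogonia. Their sum was 643 RPM in mESCs and 216 RPM in prospermatogonia, whereas their share of miRNA reads was 1.52-fold higher in prospermatogonia, 0.399% against 0.262%. Of 8 muscle miRNAs in the table none had more than 1 read in either library.

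**Figure D5:**
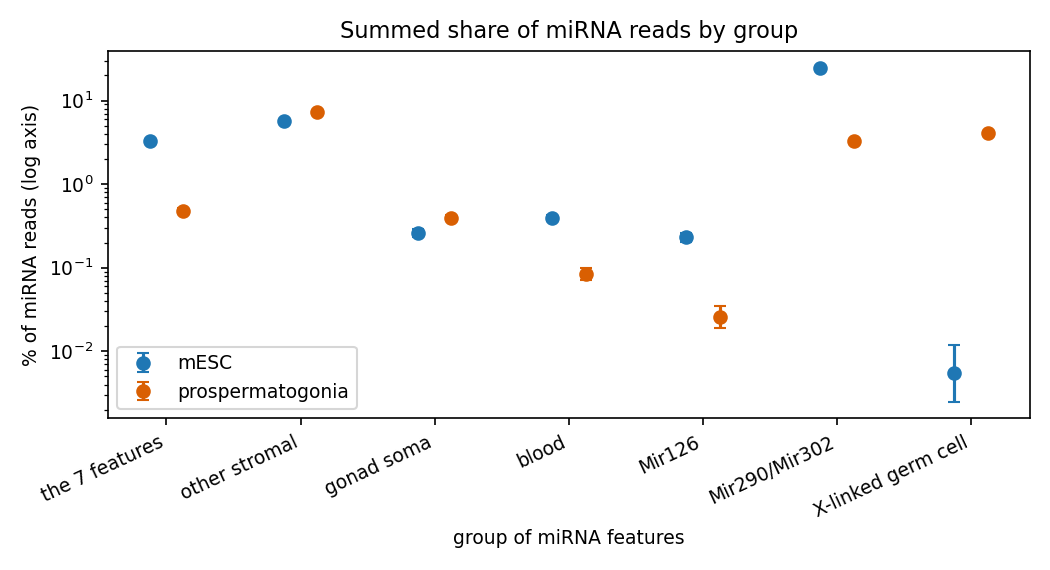
Share of miRNA reads, on a log axis, held by the 7 features and by the compared groups of miRNAs in the mESC library (blue) and the prospermatogonia library (orange), with 95% Wilson intervals. The 7 features, the blood miRNAs, Mir126 and the Mir290 and Mir302 clusters have the lower share in prospermatogonia, and the other stromal miRNAs, the miRNAs of the gonadal soma and the X-linked germ cell miRNAs the higher one. Each share is a sum, and Mir22 alone holds 3.54% and 4.73% within the stromal group, while Mir142 makes up most of the blood group.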

How the data were processed

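smRNA-seq of 1 mESC and 1 prospermatogonia library was analysed, and the mPGCLC library was not used here. The authors trimmed the reads (Trim Galore 0.4.1 in the submitters' processing notes) and mapped them with Bowtie, through piPipes, and deposited log2 values per miRNA feature. The methods name mm9, whereas the processing notes and the positions (1300 of 1638 rows on a GENCODE vM21 miRNA gene) are on GRCm38. The counter, its use of strand and its treatment of reads with several places are not given in the sources used here. The supplement gives log2 RPM for RNA-seq values, and the deposited log2 values were read so, although the table does not name its unit. Rows without a read, entered as 0.9 reads, were set to 0.

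The members and lists were chosen with earlier results of these data known. Levels carry exact Poisson intervals, shares of miRNA reads and folds of a feature between libraries Wilson intervals, and ratios within a library exact binomial intervals. The change of the Mir21 to Mir143 ratio between libraries carries a normal interval on the log scale. Reads carry no molecular identifiers, so that none of these covers more than counting error. Log2 ratios used a pseudocount of 1 RPM, which understates the change of low features. With 1 library per condition, no test across conditions was run. Features named are the 7 members, rows within 10 kb of them or with their seeds, the 2 nearest features of each member with more than 3 reads in a library, and the 2 highest members of each list, besides others chosen after their values were seen (Mir27a, Mir144, Mir221, Mir223, Mir451, mmu-mir-743b.1, mmu-mir-871.1). Library totals of 449643 and 2869578 reads set the precision. The recovery of reads and the ratios were tested on simulated data. Alternatives were other pseudocounts, scalings, filters and denominators. Computations used pandas 2.3.3 with numpy 2.4.6 and scipy 1.17.1 under Python 3.11.15, and plots matplotlib 3.10.9.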

Additional observations from a re-analysis of the deposited data

How the results depend on the processing

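No paired analysis was possible because there is a single library of each cell type, and for the same reason no replicate could be left out. Mir21, Mir143, Mir145 and Mir214 were lower in prospermatogonia under the 3 scalings, and Mir21, Mir143 and Mir214 also with pseudocounts of 0.1 and 5 RPM, which were not run for the bound of Mir145. These moved the log2 ratio of Mir214 from -5.22 to -6.29 and -3.56. Scaling to all miRNA reads and to the median ratio brought the log2 ratio of Mir21 from -4.85 to -2.68 and -2.49, that of Mir143 from -5.08 to -2.91 and -2.72, and the bound of Mir145 from 36.2-fold to 7.96-fold and 6.98-fold, by construction. The share of miRNA reads on the 7 features in mESCs, 3.31%, was 3.43% of reads on named features, 0.813% of the library total, 4.70% without the 10 highest features of each library, which leaves out Mir21 too, and 1.30% without Mir21 alone. In prospermatogonia the share of 0.482% became 0.0261% of the library total and, without the same features, 0.639% and 0.169%. Of all features, 20 were at least 2-fold higher and 164 lower (10.9% of the calls higher). With scaling to all miRNA reads 41 and 81 were (33.6%), and with the median ratio 45 and 74 (37.8%). Without a filter 40 were higher, and with 10 RPM in both libraries 5 were higher and 91 lower. Depth limits Mir145, Mir214 and Mir199b, and all RPM depend on the deposited unit being log2 RPM.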
